A study of Caenorhabditis elegans with 12 samples.

Results

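The genes described here are the genes of chromosome III of *Caenorhabditis elegans* that carried no class name in the authors' annotation, so that their public name was the same as their sequence name (such as C46F11.6). They were chosen by their raw counts, which had to sum to at least 50 over the 12 samples, and 2 genes were left out by the rule that chose them. This gave 1079 genes of the 45461 features counted. The deposited annotation lists 2482 unnamed genes on chromosome III, of which 1400 were under the minimum, 455 of them with 0 counts in all samples. Just under the minimum, F09G8.5, F42H10.9 and Y41C4A.11 each had 49 counts, and C29F9.12, E02H9.1 and K03H1.10 lay just inside with 50 each. The unnamed genes made up 56.3% of the chromosome III genes at the minimum.

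RNA was sequenced from gonads of strain PFR541 raised at 25 °C in 4 groups of 3 samples, 1 from each of 3 lineages. F2 fertile, F4 fertile and F4 sterile animals were homozygous for *set-2(bn129)*, a mutation of the H3K4 methyltransferase of the SET1/COMPASS complex, and P0 animals were *set-2(bn129)/qC1* heterozygotes, written *set-2(bn129)/+* in another label. All groups were day-1 young adults, and each sample was a pool of gonad arms of many animals, so animals of a pool cannot be told apart. Fertile animals laid live progeny, and sterile animals showed no embryos in the uterus. Lineages served as replicates, and values of the samples are given in the order of lineages 1, 2 and 3.

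A balancer such as *qC1* is a rearranged chromosome that largely prevents crossing-over with its homologue and so keeps a mutation heterozygous. *qC1* balances much of chromosome III and carries marker mutations in *dpy-19* and *glp-1*. A class name in *C. elegans* is a short functional name given once a gene has been studied, and genes without one are known mostly from sequence. In germ cells, H3K4 methylation by SET1/COMPASS marks promoters of transcribed genes and helps to keep germline identity over generations.

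The question was whether the unnamed genes differed between groups along the chromosome, since P0 gonads carried 1 *qC1* homologue and homozygous gonads carried none. The homologue, the dose of *set-2* and the generation changed together between P0 and the homozygous groups and cannot be told apart by these samples. The prefix of the library names was also spread unevenly over the groups, and what it stands for is not stated. P0 had SSAK010 in lineage 1 and SSKK007 in lineages 2 and 3. F2 fertile had SSAK010 in lineages 1 and 2 and SSKK007 in lineage 3. SSAK006 was found only in lineage 1 of F4 fertile and F4 sterile gonads. Of the 1079 genes, 975 are annotated as protein coding, 44 as pseudogenes, 21 as snoRNAs, 13 as other non-coding RNAs and 1 as an antisense RNA, and 25 IDs had no match in the reference annotation. A class name has since been given to 334 of them, by a current name list, and stands in parentheses below. The summed counts ranged from 50 to 391671 with a median of 1806. In edgeR's filter on low counts 931 genes (86.3%) passed and were tested, and 148 did not, with summed counts of 50 to 138. The span of 303 genes overlapped another counted gene. Since the use of strand in counting is not stated, the reads of overlapping genes cannot be told apart.

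The total count on genes was 3456068 to 10335794 per sample, and the unnamed genes held 7.21 to 7.76% of it in every sample. At these depths 3 counts, taken as the limit of detection, corresponded to 0.290 to 0.868 CPM (counts scaled to library size) before TMM scaling, and this limit covers counting error only. *set-2* itself had 141 to 157 CPM in F2 fertile, 123 to 129.8 in F4 fertile and 131.6 to 135 in F4 sterile gonads, against 186 to 197 CPM in P0 gonads, so every homozygous sample was below every P0 sample. *glp-1*, the germline Notch receptor, had 551 to 589 CPM in F2 fertile, 596 to 617 in F4 fertile and 521 to 608 in F4 sterile gonads, against 383 to 403 CPM in P0 gonads (log2 fold change 0.56 ± 0.08 (SE) in F2 fertile against P0, edgeR adjusted p = 0.0011). *dpy-19* had 3.82 to 5.63, 5.82 to 7.87 and 5.43 to 8.28 CPM in the same 3 groups, against 2.81 to 3.60 CPM in P0 gonads. Its log2 fold change of 0.61 ± 0.28 in F2 fertile gonads did not pass the test (edgeR adjusted p = 0.22), and that of 0.98 ± 0.28 in F4 fertile gonads did (edgeR adjusted p = 0.027). Markers of germ cells were abundant in all samples. Of 5 body muscle markers the regulator *hlh-1* was at 0 in all samples. The 5 together summed to 40.9 to 103 CPM in F2 fertile, 31.5 to 75.9 in F4 fertile and 37.1 to 163 in F4 sterile gonads, against 54.7 to 84.8 CPM in P0 gonads. In pooled gonads, fewer cells of a type and less RNA per cell cannot be told apart, here and in every comparison that follows.

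By level per exon length (RPKM), the unnamed genes with the most counts were 3 short non-coding RNAs followed at a distance by protein-coding genes. R144.15 (srpr-2.2), ZC155.8 (srpr-2.1) and B0285.12 (srpr-1.2), all with 299 bases of exon, averaged 17696, 17105 and 7695 RPKM over the 12 samples. Their names place them in 1 family, and since only uniquely mapped reads were kept, the split of reads between such copies is uncertain. R144.15 had 3448, 4639 and 5904 CPM in F2 fertile, 3314, 4786 and 6381 in F4 fertile and 2893, 7350 and 5946 in F4 sterile gonads, against 7018, 5308 and 6507 CPM in P0 gonads. The groups overlapped, and none of the 3 RNAs passed the test in any comparison. The most abundant protein-coding gene by counts was C16C10.3 (hrde-1) with a mean of 455 RPKM. C30C11.4 (hsp-110), an HSP110-type chaperone, averaged 280 RPKM, and the much shorter Y82E9BR.3 averaged 1036 RPKM. C36A4.5 (maph-1.3) averaged 173 RPKM, C28H8.3 137 RPKM, F56C9.10, which overlaps F56C9.11, 130.001 RPKM and D2045.2 (ecps-1) 127 RPKM. C36A4.5 had 342, 456 and 479.7 CPM in F4 sterile gonads, against 736, 574 and 632 CPM in P0 gonads (log2 fold change -0.61 ± 0.14, edgeR adjusted p = 0.0036). C28H8.3 had 633, 694 and 649 CPM in F4 sterile gonads, against 852, 880.2 and 845 CPM in P0 gonads (-0.38 ± 0.09, edgeR adjusted p = 0.0045). In both genes every F4 sterile sample was below every P0 sample, whereas F56C9.10 and D2045.2 passed the test in no comparison.

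In F2 fertile against P0 gonads, 47 of the 931 tested genes were higher and 9 lower at an edgeR adjusted p under 0.05. Over all 8746 tested features 7.6% were higher and 1.33% lower, against 5.05% and 0.967% of the unnamed chromosome III genes. Their median log2 fold change was 0.03, beside 0.04 over all tested features. Most rises were large and most falls small, since 38 of the 47 were over 2-fold higher and 1 of the 9 was over 2-fold lower. The same held over all tested features, with 481 of 665 higher and 21 of 116 lower calls over 2-fold. The class-named genes of chromosome III had 57 higher and 4 lower calls among 767 tested.

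The strongest rise by p-value was that of C46F11.6, a protein-coding gene at 3667081 to 3670420 (WS220, as are all positions here). It had 5.49, 5.82 and 4.72 CPM in F2 fertile gonads, against 0.983, 0.895 and 0.959 CPM in P0 gonads. The groups did not overlap, the P0 samples lay close to the limit of detection, and the log2 fold change was 2.16 ± 0.29 (edgeR adjusted p = 0.00068). T05G5.1, at 9739008 to 9743254, had 20.0, 17.3 and 11.01 CPM in F2 fertile gonads, against 3.93, 2.39 and 3.36 CPM in P0 gonads. All F2 samples were well above all P0 samples (log2 fold change 2.19 ± 0.36, edgeR adjusted p = 0.0026). T28D6.4, at 11360356 to 11366114, had 7.04, 7.98 and 10.6 CPM in F2 fertile gonads, against 0.983, 2.09 and 1.44 CPM in P0 gonads (2.33 ± 0.34, edgeR adjusted p = 0.0013). Y53G8AL.1, at 3233093 to 3241288, had 18.6, 19.6 and 28.3 CPM in F2 fertile gonads, against 4.21, 3.88 and 6.48 CPM in P0 gonads (2.12 ± 0.30, edgeR adjusted p = 0.0011). M03C11.1, at 10393296, had 2.25, 3.80 and 3.82 CPM in F2 fertile gonads, against 0.702, 0.298 and 0.240 CPM in P0 gonads (2.21 ± 0.40, edgeR adjusted p = 0.0043). Its P0 samples of lineages 2 and 3 were under the limit of 3 counts (0.868 and 0.690 CPM before TMM scaling), so its fitted fold depends on the prior count. These 5 genes kept their calls when any 1 library was left out.

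Among the 10 largest rises were genes with almost no reads in P0 gonads. Such genes could pass the low-count filter only through homozygous samples, so a rise was the only call against P0 open to them. This held for M03C11.1 as well. ZC21.10 had 0 counts in all 3 P0 samples, against 35 counts in F2 fertile gonads with 1.55, 2.66 and 0.674 CPM. Measured against 3 counts in the shallowest P0 library (0.895 CPM), its F2 mean was at least 1.82-fold higher. Its call was lost in 5 of the 12 fits that left out 1 library (edgeR adjusted p = 0.069 to 0.12), those without the F2 fertile sample of lineage 1 or 2 or any P0 sample. C14B9.3 had 2 counts in P0 gonads in all and 3.66, 1.65 and 1.35 CPM in F2 fertile gonads. It overlaps *gei-8*, and its call was lost without the P0 sample of lineage 2 or 3 (edgeR adjusted p = 0.0514 and 0.0505). Y45F3A.4 had 3 counts in P0 gonads and 45 in F2 fertile gonads, with 2.39, 2.03 and 2.70 CPM in the F2 samples. K02D10.4, which overlaps *snap-29*, had 1.83, 3.80 and 1.35 CPM in F2 fertile gonads, against 0.281, 0.298 and 0.240 CPM in P0 gonads. Its call was lost without the F2 fertile sample of lineage 2 or any P0 sample (edgeR adjusted p = 0.073 to 0.097).

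The strongest call by p-value of some bins was a more abundant gene. Y32H12A.8, in bin 6, had 176, 185 and 146 CPM in F2 fertile gonads, against 110.3, 93.9 and 107 CPM in P0 gonads (log2 fold change 0.70 ± 0.13, edgeR adjusted p = 0.0050, and 0.051 without the P0 sample of lineage 2). Y37D8A.4, in bin 13, had 17.2, 21.5 and 21.1 CPM in F2 fertile gonads, against 8.57, 6.56 and 9.59 CPM in P0 gonads (1.23 ± 0.20, edgeR adjusted p = 0.0025). Y54F10BM.9, in bin 3, had 40.4, 40.4 and 33.0 CPM in F2 fertile gonads, against 21.9, 13.1 and 17.99 CPM in P0 gonads (1.07 ± 0.19, edgeR adjusted p = 0.0037). In each of the 3 genes every F2 sample was above every P0 sample. In bins 5, 9 and 14 the gene with the smallest p was one of low level. T23F11.4, in bin 5, had 6.20, 7.72 and 7.41 CPM in F2 fertile gonads, against 3.37, 2.39 and 2.88 CPM in P0 gonads (1.19 ± 0.28, edgeR adjusted p = 0.017). C02F5.12, in bin 9, had 5.91, 5.57 and 4.04 CPM in F2 fertile gonads, against 0.843, 1.79 and 0.480 CPM in P0 gonads (2.08 ± 0.43, edgeR adjusted p = 0.0087). F53A2.3, in bin 14, had 2.11, 3.80 and 2.92 CPM in F2 fertile gonads, against 1.26, 0.298 and 0.959 CPM in P0 gonads (1.41 ± 0.38, edgeR adjusted p = 0.036). The groups did not overlap, but the call of C02F5.12 was lost when P0 lineage 1 or 3 was left out (edgeR adjusted p = 0.057 and 0.055), that of T23F11.4 when F2 fertile lineage 2 or 3 or any P0 sample was (0.052 to 0.099), and that of F53A2.3 in 7 of 12 such fits (0.052 to 0.16) and with lineage as a block (0.051).

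**Figure D1:**
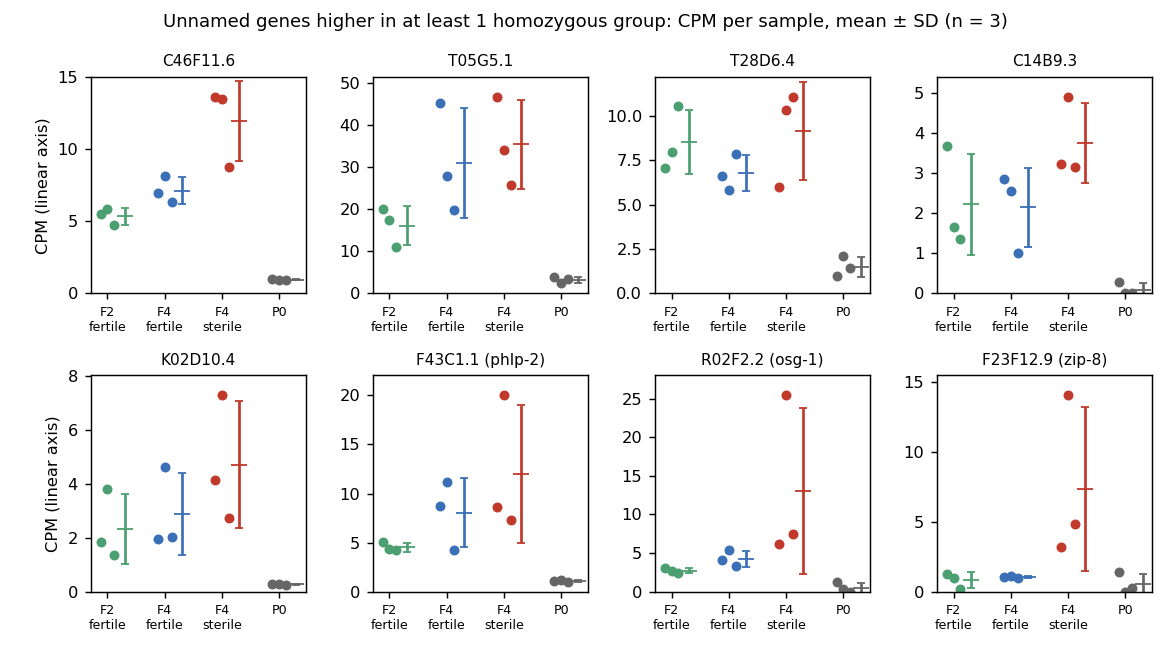
CPM (linear axis) of 8 unnamed chromosome III genes in each sample of F2 fertile, F4 fertile, F4 sterile and P0 gonads; points are the 3 lineages, and the bar to their right is the mean with its SD (n = 3). In C46F11.6 the homozygous samples lie between 4.72 and 13.6 CPM and the P0 samples between 0.895 and 0.983 CPM, and in R02F2.2 (osg-1) and F23F12.9 (zip-8) the F4 sterile sample of lineage 2 stands far above the other samples.

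All 9 genes that fell in F2 fertile gonads are named here. C16A3.10 (oatr-1), whose name is that of an ornithine aminotransferase, had 59.8, 59.8 and 49.2 CPM in F2 fertile gonads, against 89.7, 94.2 and 95.2 CPM in P0 gonads. Every F2 sample was below every P0 sample (log2 fold change -0.72 ± 0.10, edgeR adjusted p = 0.0012), and the call held without any 1 library. The levels in later groups stayed near those of F2: 64.2, 63.2 and 53.9 CPM in F4 fertile and 63.9, 59.8 and 57.9 CPM in F4 sterile gonads, with -0.61 ± 0.10 and -0.62 ± 0.10 against P0. The pseudogene F27B3.7 had 3.10, 4.05 and 2.25 CPM in F2 fertile gonads, against 8.01, 8.05 and 8.87 CPM in P0 gonads (-1.30 ± 0.31, edgeR adjusted p = 0.020). C09E7.8 had 67.4, 66.98 and 63.1 CPM in F2 fertile gonads, against 94.0, 96.9 and 79.6 CPM in P0 gonads (-0.45 ± 0.10, edgeR adjusted p = 0.011). These 3 genes lie in bin 7, between 6394181 and 6563691. C09E7.8 kept its call without any 1 library, whereas F27B3.7 lost it without the F2 fertile sample of lineage 1 or 3 or the P0 sample of lineage 2 or 3 (edgeR adjusted p = 0.051 to 0.069).

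The other 6 genes that fell were in bins 1, 2, 4, 6 and 8. T24C4.5 had 28.6, 29.8 and 30.3 CPM in F2 fertile gonads, against 49.6, 46.5 and 53.0 CPM in P0 gonads (log2 fold change -0.75 ± 0.19, edgeR adjusted p = 0.025). F34D10.4 had 138, 152 and 171 CPM in F2 fertile gonads, against 208, 208 and 209 CPM in P0 gonads (-0.44 ± 0.10, edgeR adjusted p = 0.015). H14A12.3 fell by 0.45 ± 0.10 on the log2 scale and M01G5.3 (tmem-120), whose name is that of a transmembrane protein family, by 0.48 ± 0.13. Y119D3B.11 (orc-3), a subunit of the origin recognition complex that starts DNA replication, had 67.3, 63.1 and 72.6 CPM in F2 fertile gonads, against 85.1, 91.5 and 80.8 CPM in P0 gonads (-0.34 ± 0.09, edgeR adjusted p = 0.032). R02F2.1 had 335, 360.1 and 379 CPM in F2 fertile gonads, against 467, 422 and 443 CPM in P0 gonads (-0.31 ± 0.08, edgeR adjusted p = 0.036). All 6 calls were lost without at least 1 library: H14A12.3 without the F2 fertile sample of lineage 2 (adjusted p = 0.054), F34D10.4 without that of lineage 1 or 2 (0.067 and 0.069), T24C4.5 without those or any P0 sample (0.055 to 0.096), and the other 3 in 5 or 6 of 12 such fits (0.052 to 0.17).

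The number of calls in F2 fertile against P0 gonads moved with single libraries. The share of all features called was not computed in these fits or in the later ones that left out 1 library. Whether such shifts are particular to the unnamed chromosome III genes was thus not tested. In place of 47, there were 25, 20 and 25 higher genes when the F2 fertile sample of lineage 1, 2 or 3 was left out, and 20, 13 and 16 when the P0 sample of lineage 1, 2 or 3 was. In place of 9, there were 4 and 3 lower genes when the F2 fertile sample of lineage 1 or 2 was left out, and 5 when the P0 sample of lineage 3 was. There were 18 lower genes without the F2 fertile sample of lineage 3, and 14 and 28 without the F4 sterile sample of lineage 1 or 2, which enter only through the shared estimate of spread. Lineage as a block gave 15 lower genes.

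Along the chromosome, 14 bins of 1 Mb counted from the left end held 37 to 96 tested unnamed genes each. In F2 fertile against P0 gonads, higher genes were found in 13 of the 14 bins and in no bin more than 10, which was the number in bin 9 (of 94 tested). Bin 2 had 0 higher and 2 lower genes of 37, and bin 7 had 3 of each among 68. Of all tested features 7.6% were higher and 1.33% lower. The bin medians of the log2 fold change lay between -0.11 in bin 2 and 0.10 in bin 10. The 67 bins of 1 Mb of unnamed genes on the other autosomes with at least 20 tested genes had medians between -0.14 and 0.39, and every chromosome III bin was inside that range. Since the range came from many more bins, some with fewer genes (20 to 82 each), lying inside it shows little. In F4 fertile against P0 gonads the bin medians were -0.09 to 0.10, inside a range of -0.29 to 0.32, and in F4 sterile against P0 gonads -0.16 to 0.11, inside -0.21 to 0.47. The class-named genes of chromosome III had their highest bin medians in bin 4 (0.27, 0.26 and 0.34 in the same 3 comparisons). The unnamed genes of that bin had 0.02, 0.03 and 0.01. These ranges and medians are descriptions without a test.

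**Figure D2:**
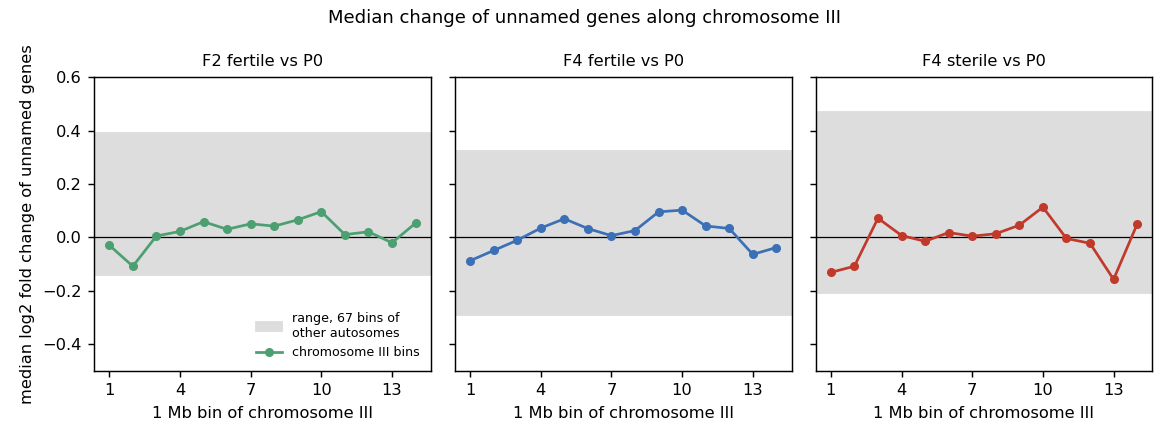
Median log2 fold change of the unnamed genes in each of 14 bins of 1 Mb along chromosome III (points), for F2 fertile, F4 fertile and F4 sterile gonads against P0 gonads; the grey band spans the lowest to the highest median of 67 bins of unnamed genes on the other autosomes. All points lie inside the band, between -0.16 and 0.11. The band comes from many more bins than the points, some of them with fewer genes.

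The 9 homozygous samples, which lack the *qC1* homologue, were also set against the 3 P0 samples that carry it, where the homologue, the dose of *set-2* and the generation again cannot be told apart. The CPM of all 9 homozygous samples were above those of all 3 P0 samples in 88 unnamed chromosome III genes (9.45%), where this was 14.9% of all tested features, and below them in 49 (5.26%), where it was 6.8% of all. For the unnamed genes of the other autosomes the shares were 8.88% above and 7.77% below among 3411 tested, for the class-named genes of chromosome III 16.7% and 5.74% of 767, and for the unnamed genes of the X chromosome 40.8% and 1.79% of 503. By bin, the 88 genes were spread as 0 in bin 2 to 12 in bin 9, and the 49 genes as 1 in bins 3, 9 and 10 to 7 in bin 6. The share below was 12% when the F2 fertile sample of lineage 3 was left out, 8.13% when the F4 fertile sample of lineage 3 was, 8.32% when the F4 sterile sample of lineage 2 was, and 10.4 to 12.4% when any 1 P0 sample was. With fewer samples non-overlap is easier to reach for any feature. The share over all features was not computed in these fits, so these values cannot be set beside 6.8%.

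In F4 fertile against P0 gonads, 97 of the 931 genes were higher and 54 lower, which is 10.4% and 5.8%, where 13.7% and 7.42% of all tested features were called. The median log2 fold change was 0.03, beside 0.04 over all tested features. The largest rise was that of Y45F3A.4, with 5.90, 5.38 and 3.79 CPM in F4 fertile gonads, against 0.140, 0.298 and 0.240 CPM in P0 gonads, which is 3 counts in all, so that its fitted fold depends on the prior count. T05G5.1 had 45.2, 28.03 and 19.7 CPM in F4 fertile gonads, against 3.93, 2.39 and 3.36 CPM in P0 gonads (log2 fold change 3.11 ± 0.36, edgeR adjusted p = 0.00014). F43C1.1 (phlp-2) had 8.76, 11.1 and 4.30 CPM in F4 fertile gonads, against 1.12, 1.19 and 0.959 CPM in P0 gonads (2.60 ± 0.45, edgeR adjusted p = 0.0017). D1044.1 had 6.97, 9.82 and 11.1 CPM in F4 fertile gonads, against 1.26, 2.09 and 1.44 CPM in P0 gonads (2.36 ± 0.31, edgeR adjusted p = 0.00028). T21C12.8 had 8.40, 10.5 and 3.03 CPM in F4 fertile gonads, against 1.40, 0.596 and 0.959 CPM in P0 gonads (2.51 ± 0.42, edgeR adjusted p = 0.0014). The groups did not overlap in any of these genes.

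Of the falls in F4 fertile gonads, the largest was again that of F27B3.7, with 1.07, 2.08 and 1.52 CPM (log2 fold change against P0 -2.17 ± 0.32, edgeR adjusted p = 0.00072). T24C4.5 fell to 25.0, 22.6 and 20.5 CPM and C09E7.8 to 47.9, 45.0 and 49.8 CPM (-1.12 ± 0.19 and -0.92 ± 0.10). T07C4.11 (jmjd-4), a Jumonji-domain gene by its name, had 3.22, 3.30 and 4.30 CPM in F4 fertile gonads, against 7.44, 8.95 and 8.16 CPM in P0 gonads (-1.12 ± 0.25, edgeR adjusted p = 0.0078). The pseudogenes T16H12.1 and Y82E9BR.2 fell as well: Y82E9BR.2 had 37.5, 35.8 and 40.7 CPM in F4 fertile gonads, against 62.4, 66.8 and 61.2 CPM in P0 gonads (-0.74 ± 0.15, edgeR adjusted p = 0.0053). T16H12.1 had -1.15 ± 0.28 (edgeR adjusted p = 0.013, or 0.067 when F4 fertile lineage 2 was left out). The remaining falls by the naming rule were of genes at lower or middle level, and each lost its call in some of the fits that left out 1 library. F37C12.21, which overlaps F37C12.10, had 1.43, 1.04 and 0.759 CPM in F4 fertile gonads, against 2.39, 4.17 and 3.36 CPM in P0 gonads (-1.34 ± 0.40, edgeR adjusted p = 0.030, lost in 5 of 12 fits with 0.061 to 0.12). T28D6.5, which overlaps T28D6.6, had 8.58, 9.63 and 10.1 CPM in F4 fertile gonads, against 18.3, 18.8 and 14.6 CPM in P0 gonads (-0.85 ± 0.28, edgeR adjusted p = 0.046, lost in 9 of 12 fits with 0.053 to 0.13). ZK1098.7 (mrps-23) and B0336.11 (hpo-28) fell by 0.77 ± 0.22 and 0.76 ± 0.22 on the log2 scale, and both lost the call without F4 fertile lineage 1 or 2 or P0 lineage 1 or 2 (edgeR adjusted p = 0.0502 to 0.12). The counts of calls were 53 to 61 higher genes without the F4 fertile sample of lineage 1 or 2 or any P0 sample, and leaving out F4 fertile lineage 1, F4 fertile lineage 2 or F4 sterile lineage 2 gave 21, 27 or 94 lower genes.

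In F4 sterile against P0 gonads, 180 of the 931 genes were higher and 143 lower, which is 19.3% and 15.4%, where 26.4% and 16.8% of all tested features were called. The median log2 fold change was 0.00 beside 0.05 over all tested features. Of the higher genes 118 were over 2-fold higher, and of the lower genes 20 were over 2-fold lower. Over all tested features these were 1797 of 2311 higher and 190 of 1473 lower calls. Leaving out F4 sterile lineage 2, P0 lineage 2 or P0 lineage 3 gave 118, 115 or 113 higher genes.

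C46F11.6 had 13.6, 13.5 and 8.78 CPM in F4 sterile gonads, against 0.983, 0.895 and 0.959 CPM in P0 gonads (log2 fold change 3.28 ± 0.29, edgeR adjusted p = 3.8e-06). T05G5.1 had 46.8, 34.05 and 25.7 CPM in F4 sterile gonads (3.30 ± 0.36 against P0, edgeR adjusted p = 2e-05). R02F2.2 (osg-1) had 6.13, 25.5 and 7.52 CPM in F4 sterile gonads, against 1.26, 0.298 and 0 CPM in P0 gonads (3.84 ± 0.64, edgeR adjusted p = 0.00042). The sample of lineage 2 was more than 3 times the other 2 F4 sterile samples. F23F12.9 (zip-8), a bZIP transcription factor by its class name, had 3.22, 14.03 and 4.81 CPM in F4 sterile gonads, against 1.40, 0 and 0.240 CPM in P0 gonads (2.98 ± 0.67, edgeR adjusted p = 0.0031), again with lineage 2 highest. In R02F2.2 and F23F12.9 the P0 samples of lineages 2 and 3 were under the limit of 3 counts, so the fitted folds depend on the prior count. ZC21.10 had 1.69, 10.3 and 4.18 CPM in F4 sterile gonads and 0 counts in P0 gonads, a mean at least 6.04-fold higher than the limit of 3 counts in the shallowest P0 library. C09F5.1 had 13.8, 33.0 and 23.4 CPM in F4 sterile gonads, against 3.37, 2.09 and 2.88 CPM in P0 gonads (2.91 ± 0.33, edgeR adjusted p = 2.5e-05). All 6 genes kept this call without any 1 library.

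The falls in F4 sterile gonads included genes of middle and high level. F34D10.4, which also fell in both fertile groups, had 95.1, 91.4 and 105 CPM in F4 sterile gonads, against 208, 208 and 209 CPM in P0 gonads (log2 fold change -1.10 ± 0.10, edgeR adjusted p = 5.3e-06). The pseudogene C14B1.7 had 159, 153 and 191 CPM in F4 sterile gonads, against 381, 372 and 386 CPM in P0 gonads (-1.18 ± 0.12, edgeR adjusted p = 9e-06). F58A4.2 had 25.3, 19.6 and 15.9 CPM in F4 sterile gonads, against 52.0, 41.1 and 53.5 CPM in P0 gonads (-1.26 ± 0.18, edgeR adjusted p = 0.00016). In all 3 genes every F4 sterile sample was below every P0 sample. Some of the largest falls belonged to features of very low level, such as T19C3.7 with 0.307, 0.653 and 0.627 CPM in F4 sterile gonads, against 1.97, 3.58 and 1.92 CPM in P0 gonads (-1.69 ± 0.42, edgeR adjusted p = 0.0054). Others were the non-coding RNA C36E8.10 with 0.460, 0.870 and 1.05 CPM in F4 sterile gonads, against 2.39, 2.98 and 3.60 CPM in P0 gonads (-1.57 ± 0.43, edgeR adjusted p = 0.010), and the snoRNA R151.12, which overlaps *rpl-6* and whose call was lost without the F4 sterile sample of lineage 3 (edgeR adjusted p = 0.076) or the P0 sample of lineage 1 (edgeR adjusted p = 0.17). F48E8.8 had 0.920, 1.09 and 1.25 CPM in F4 sterile gonads, against 2.39, 3.28 and 4.08 CPM in P0 gonads (-1.33 ± 0.33, edgeR adjusted p = 0.0059), and kept its call without any 1 library. The non-coding RNA K11D9.7, which overlaps *klp-7*, and F37C12.21 fell by 1.47 ± 0.49 and 1.19 ± 0.39 on the log2 scale, and each lost its call in 4 of 12 fits (edgeR adjusted p = 0.051 to 0.077), those without F4 sterile lineage 1 or 2 or either of 2 P0 samples.

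Cell type markers differed between these groups too. Of 10 germ line markers, F2 fertile gonads had 1 lower than P0 gonads, F4 fertile gonads had 4 and F4 sterile gonads had 8, 1 was higher in F4 fertile gonads, and their summed level was 10103 to 10684 CPM in F2 fertile, 8970 to 9481 in F4 fertile and 6284 to 8121 in F4 sterile gonads, against 10645 to 11170 CPM in P0 gonads. Of 5 neuronal markers 4 were tested and all 4 were higher in F4 sterile gonads, with sums of 82.2 to 117 CPM in F2 fertile, 99.9 to 124 in F4 fertile and 137 to 148 in F4 sterile gonads, against 93.6 to 98.9 CPM in P0 gonads. Intestinal markers summed to 1028 to 5778 CPM in F4 sterile gonads, against 3239 to 4147 CPM in P0 gonads, and none of the 4 tested was called. Sperm markers summed to 8.28 to 30.9 CPM in F4 sterile gonads, against 3.36 to 7.87 CPM in P0 gonads, and 1 of the 2 tested was higher. Of the sheath and spermatheca markers 1 of 3 tested was higher and 1 lower, and of the epidermal markers 1 of 2 was lower. None of the 4 tested muscle markers was called, and no distal tip or pharynx marker passed the filter. The part of these markers in the changes of the unnamed genes was not tested.

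**Figure D3:**
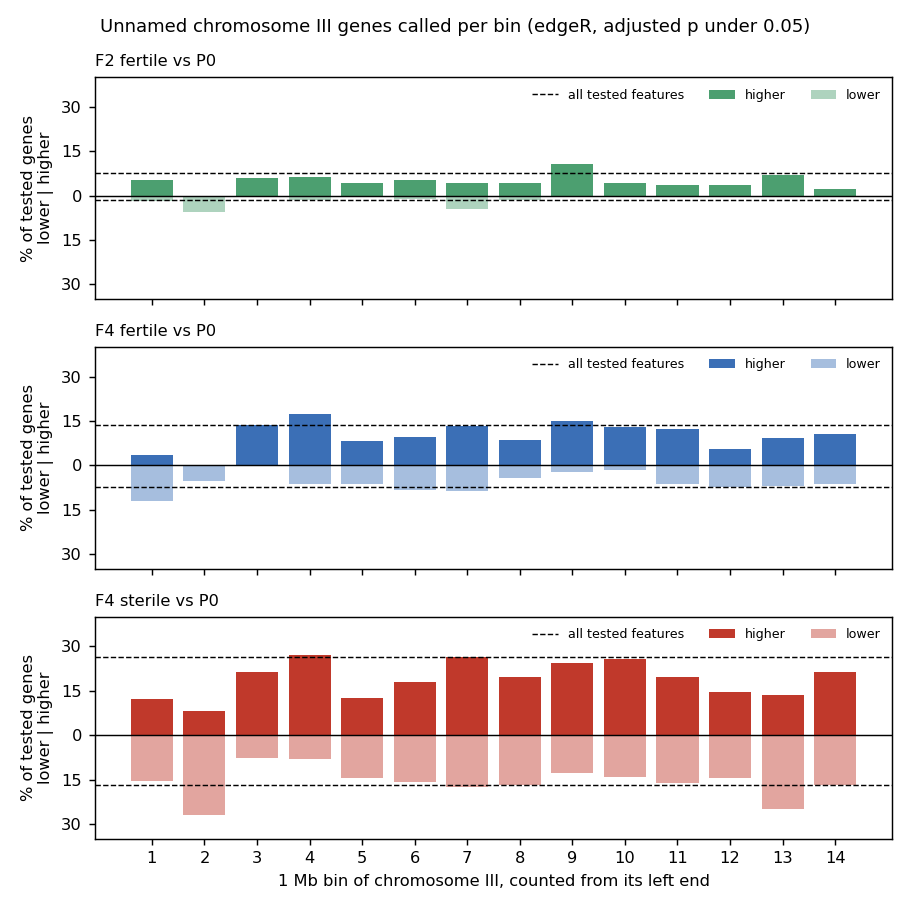
Percent of the tested unnamed genes of each 1 Mb bin of chromosome III that were higher (upward) or lower (downward) in F2 fertile, F4 fertile and F4 sterile gonads against P0 gonads (edgeR, adjusted p under 0.05); dashed lines are the percent over all 8746 tested features (7.6 and 1.33, 13.7 and 7.42, 26.4 and 16.8). Bins 2 and 13 have the largest shares of lower genes in F4 sterile gonads, 10 of 37 and 11 of 44.

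In F4 sterile against P0 gonads the bins with the most higher genes by number were bin 9 with 23 of 94, bin 7 with 18 of 68 and bin 10 with 18 of 70. These numbers depend on the size of the bin. The largest share of higher genes was that of bin 4, with 17 of 63. It was close to the 26.4% higher among all tested features. Lower genes outnumbered higher genes in bin 1 (9 against 7), bin 2 (10 against 3), bin 5 (14 against 12) and bin 13 (11 against 6). The lowest bin median was that of bin 13 (-0.16) and the highest that of bin 10 (0.11).

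The lists of genes by function were built from current class names and hold few genes each. Small RNA pathways use Argonaute proteins and short guide RNAs to silence genes in the germ line, some of them over generations. Of 6 unnamed genes on chromosome III that now have names of this pathway, 3 were lower in F4 sterile than in P0 gonads and 3 in F4 fertile than in P0 gonads, with a median log2 fold change of -0.26 in F4 sterile gonads. Of all tested features 16.8% were lower in F4 sterile and 7.42% in F4 fertile gonads, and the list of 6 genes has no test of its own. C16C10.3 (hrde-1), the nuclear Argonaute of germline inherited silencing, had 1729, 1601 and 1864 CPM in F2 fertile, 1416, 1589 and 1662 in F4 fertile and 1246, 1038 and 1195 in F4 sterile gonads, against 2064, 1955 and 1960 CPM in P0 gonads. The F4 sterile samples were below all others (log2 fold change against P0 -0.78 ± 0.10, edgeR adjusted p = 6.2e-05), the F4 fertile samples were below all P0 samples (-0.36 ± 0.10, edgeR adjusted p = 0.022), and the F2 value of -0.20 ± 0.10 did not pass (edgeR adjusted p = 0.25). ZK418.8 (tofu-7), named for a role in the production of small RNAs called 21U-RNAs, had 46.8, 29.8 and 38.2 CPM in F4 sterile gonads, against 65.5, 71.9 and 67.2 CPM in P0 gonads (-0.83 ± 0.14, edgeR adjusted p = 0.00040). F35G12.11 (erh-2), a partner of the piRNA processing machinery, fell by 0.52 ± 0.13 on the log2 scale in F4 sterile gonads. C14B1.6 (nrde-1), a nuclear RNAi factor, had 133, 112 and 116 CPM in F4 sterile gonads, against 97.5, 103 and 100.3 CPM in P0 gonads, and this difference did not pass the test (0.26 ± 0.10, edgeR adjusted p = 0.053).

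Mitochondrial ribosomes translate the few proteins encoded by the mitochondrial genome. Of 21 unnamed genes that now carry names of mitochondrial ribosomal proteins, none was higher and 10 were lower in F4 sterile than in P0 gonads, with a median log2 fold change of -0.36, 1 was lower in F4 fertile gonads and none was called in F2 fertile gonads, where the median was -0.05. The percentages of all tested features lower in these comparisons were those given above (16.8% in F4 sterile gonads). Y119D3B.16 (mrpl-45) had 103, 83.6 and 104 CPM in F4 sterile gonads, against 127, 133 and 126 CPM in P0 gonads (-0.41 ± 0.09, edgeR adjusted p = 0.0021). M88.2 (mrps-34) had 39.4, 32.4 and 39.5 CPM in F4 sterile gonads, against 52.0, 64.4 and 43.9 CPM in P0 gonads (-0.52 ± 0.15, edgeR adjusted p = 0.013). ZK1098.7 (mrps-23) had 9.20, 7.94 and 10.9 CPM in F4 sterile gonads, against 24.7, 25.9 and 21.3 CPM in P0 gonads (-1.34 ± 0.22, edgeR adjusted p = 0.00036), but it overlaps ZK1098.1. In ZC262.8 (mrps-18A) the value was 0.28 ± 0.29 (edgeR adjusted p = 0.46). Of 8 unnamed genes of the respiratory chain, 1 was lower and none higher in F4 sterile gonads.

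**Figure D4:**
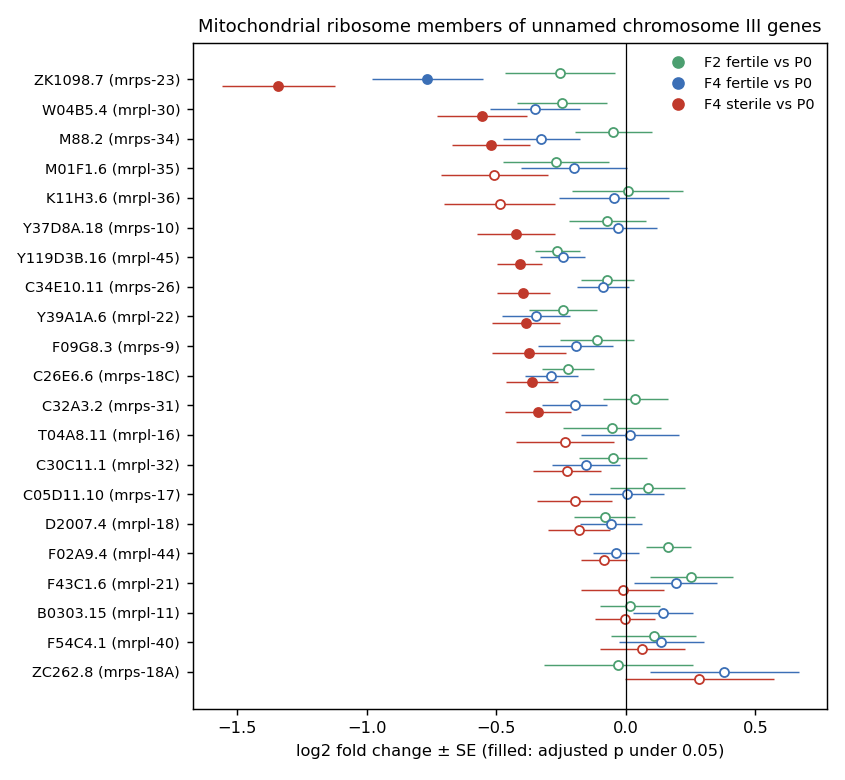
Log2 fold change with its SE of the 21 unnamed chromosome III genes now named as mitochondrial ribosomal proteins, in F2 fertile, F4 fertile and F4 sterile gonads against P0 gonads; filled points have an edgeR adjusted p under 0.05. In F4 sterile gonads 10 points are filled, all below 0, and in F2 fertile gonads none is.

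The counts of the other lists in F4 sterile against P0 gonads stand beside 26.4% higher and 16.8% lower among all tested features. Of 6 genes of DNA replication and repair, Y37B11A.2 (rev-3), the catalytic subunit of a translesion DNA polymerase, was higher in F4 sterile gonads with 74.1, 49.4 and 57.9 CPM, against 35.8, 42.9 and 39.1 CPM in P0 gonads (log2 fold change 0.62 ± 0.16, edgeR adjusted p = 0.0061). Of 6 chromatin genes, Y55B1BR.3 (cec-8), a chromodomain gene by its name, had 1.69, 5.70 and 4.72 CPM in F2 fertile and 4.29, 10.9 and 6.69 CPM in F4 sterile gonads, against 0.843, 1.49 and 0.480 CPM in P0 gonads (1.82 ± 0.49 and 2.65 ± 0.50, edgeR adjusted p = 0.035 and 0.00095). Another chromodomain gene, Y37D8A.11 (cec-7), had 152, 138 and 174 CPM in F4 sterile gonads, against 222, 222 and 218 CPM in P0 gonads (-0.51 ± 0.09, edgeR adjusted p = 0.00083). Of 3 meiosis genes, T16H12.11 (hal-2), needed for synapsis of homologous chromosomes, fell by 0.65 ± 0.13 on the log2 scale in F4 sterile gonads. Of 6 cilia genes 5 were tested and 2 were higher in F4 sterile gonads, among them F58A4.14 (bbs-4), a subunit of the BBSome of ciliary transport, with 6.13, 10.3 and 4.81 CPM, against 0.983, 0.596 and 0.480 CPM in P0 gonads (2.84 ± 0.39, edgeR adjusted p = 0.00011). F58A4.14 was under the limit of 3 counts in P0 lineages 2 and 3, so its fitted fold depends on the prior count. Of 13 splicing genes 2 were higher and 1 lower, of 14 transcription genes 1 and 2, and of 12 secretory pathway genes 1 and 1. Of 32 tested pseudogenes 2 were higher (6.25%) and 8 lower (25%). Of 17 snoRNAs 3 were lower (17.6%), which is near the share of all features, and 2 of them overlap *klp-19* and 1 overlaps *rpl-6*. The 626 tested genes still without a class name had 134 higher (21.4%) and 85 lower (13.6%) calls in F4 sterile gonads, and the 305 named since had 46 (15.1%) and 58 (19%), and these shares are descriptions without a test.

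In F4 sterile against F4 fertile gonads only 3 unnamed genes were higher and 7 lower, which is 0.322% and 0.752%, where 2.85% and 0.434% of all tested features were called. The 3 higher genes were ZC21.10, F23F12.9 (zip-8) and R02F2.1. R02F2.1 had 427, 462 and 454 CPM in F4 sterile gonads, against 313, 364 and 366 CPM in F4 fertile gonads (log2 fold change 0.36 ± 0.08, edgeR adjusted p = 0.038). Its F4 sterile level was that of P0 within the spread (467, 422 and 443 CPM), and it was lower than P0 in F2 fertile and F4 fertile gonads. The 7 lower genes were F58A4.2, M88.7 (cisd-3.1), Y111B2A.10 (gldi-8), C14B1.7, R74.6 (pelo-1), F34D10.4 and C16C10.3 (hrde-1). M88.7 (cisd-3.1), of an iron-sulphur protein family by its name, had 33.0, 27.6 and 29.3 CPM in F4 sterile gonads, against 38.4, 44.2 and 49.3 CPM in F4 fertile gonads (-0.55 ± 0.12, edgeR adjusted p = 0.032). Y111B2A.10 had 54.6, 47.6 and 48.3 CPM in F4 sterile gonads, against 73.6, 72.7 and 72.6 CPM in F4 fertile gonads (-0.54 ± 0.10, edgeR adjusted p = 0.025). R74.6 (pelo-1), a factor of ribosome rescue that overlaps *asd-1*, had 23.2, 21.3 and 23.4 CPM in F4 sterile gonads, against 31.1, 32.2 and 32.1 CPM in F4 fertile gonads (-0.49 ± 0.11, edgeR adjusted p = 0.041). Each of the 10 calls was lost when F4 sterile lineage 2 was left out, and when either of at least 2 F4 fertile samples was (edgeR adjusted p = 0.051 to 0.27 in the fits that lost them), so that 0 higher and 0 lower genes were left without the F4 sterile sample of lineage 2. Without that of lineage 1 there were 22 higher and 46 lower genes, and leaving out any other library gave 0 to 3 and 0 to 9. No gene was called higher when F2 fertile lineage 3, any F4 fertile sample, or P0 lineage 2 or 3 was dropped, and 1 was called when F2 fertile lineage 2 or P0 lineage 1 was. The 3 higher genes named above all lost their calls without F2 fertile lineage 2 or F4 sterile lineage 3 (edgeR adjusted p = 0.054 to 0.067). Any higher call counted in those fits was thus of another gene. Lower genes numbered 1, 0 and 0 when F4 fertile lineage 1, 2 or 3 was dropped, 3 and 4 when F2 fertile lineage 1 or 2 was, and 2 when P0 lineage 3 was. With lineage as a block there were 8 higher and 15 lower genes, and with the library name prefix as covariate 24 and 36.

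**Figure D5:**
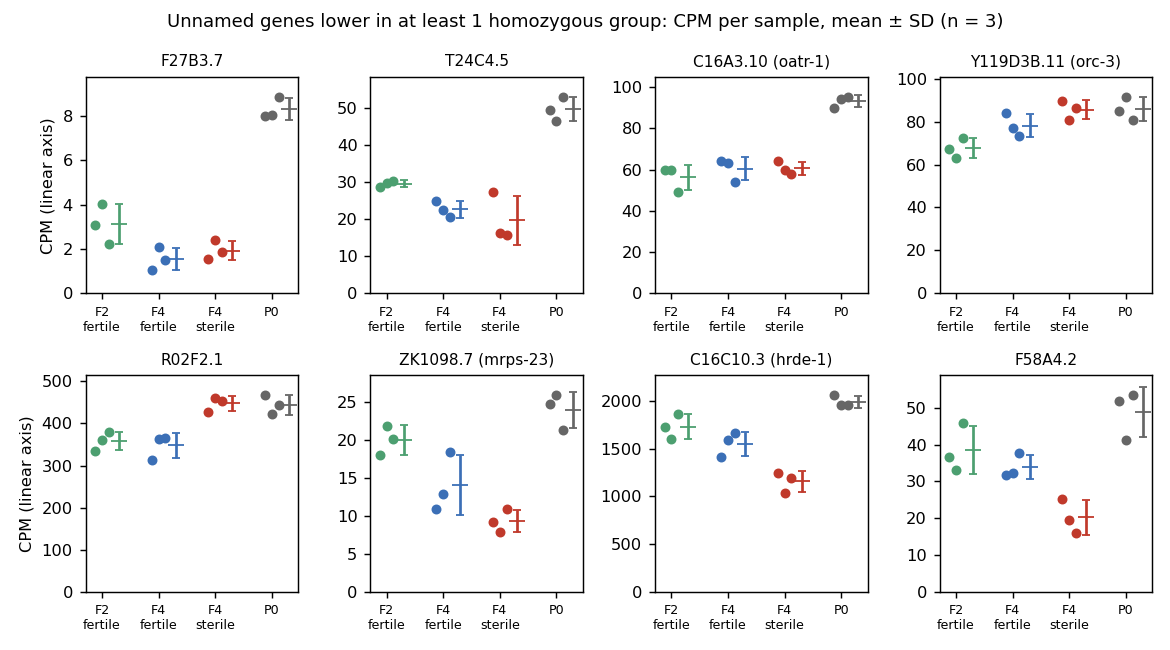
CPM (linear axis) of 8 unnamed chromosome III genes in each sample of F2 fertile, F4 fertile, F4 sterile and P0 gonads; points are the 3 lineages, and the bar to their right is the mean with its SD (n = 3). C16A3.10 (oatr-1) is at 49.2 to 64.2 CPM in all homozygous samples and at 89.7 to 95.2 CPM in P0 samples, Y119D3B.11 (orc-3) is lower in F2 fertile samples, and C16C10.3 (hrde-1) is lowest in F4 sterile samples.

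In F4 sterile against F2 fertile gonads, 51 genes were higher and 77 lower, which is 5.48% and 8.27%, where 11.2% and 7.79% of all tested features were called. The largest rise was that of F23F12.9 (zip-8), with 3.22, 14.03 and 4.81 CPM in F4 sterile gonads, against 1.27, 1.01 and 0.225 CPM in F2 fertile gonads (log2 fold change 2.69 ± 0.63, edgeR adjusted p = 0.013, and 0.0502 to 0.0523 without the F2 fertile sample of lineage 3 or the F4 sterile sample of lineage 2). F58A4.14 (bbs-4) had 6.13, 10.3 and 4.81 CPM in F4 sterile gonads, against 2.25, 1.52 and 2.02 CPM in F2 fertile gonads (1.74 ± 0.35, edgeR adjusted p = 0.0065). Among the other large rises were genes of low level whose groups did not overlap. R02F2.2 (osg-1) had 2.14 ± 0.55 (edgeR adjusted p = 0.019) and Y71H2AM.25, with 2.61, 5.87 and 2.51 CPM in F4 sterile gonads, against 0.141, 0.633 and 0.674 CPM in F2 fertile gonads, had 2.36 ± 0.61 (edgeR adjusted p = 0.019). F59B2.8 had 3.83, 5.66 and 1.46 CPM in F4 sterile gonads, against 0.986, 0.886 and 0.225 CPM in F2 fertile gonads (1.94 ± 0.46, edgeR adjusted p = 0.013). R151.1 had 4.75, 4.68 and 3.55 CPM in F4 sterile gonads, against 1.83, 1.14 and 0.674 CPM in F2 fertile gonads (1.57 ± 0.41, edgeR adjusted p = 0.019). Y82E9BR.17, K11H3.2, Y71H2B.8 and T05D4.3 (exc-12) had log2 fold changes of 2.08 ± 0.64, 1.43 ± 0.43, 1.42 ± 0.42 and 1.47 ± 0.48 (edgeR adjusted p = 0.032 to 0.050). All 8 of these calls were lost in at least 1 of the 12 fits that left out 1 library, from 1 fit for F59B2.8 (without F2 fertile lineage 3, edgeR adjusted p = 0.056) to 9 for T05D4.3 (0.060 to 0.15, and 0.055 with lineage as a block), and DESeq2 did not call T05D4.3 or Y71H2B.8 (adjusted p = 0.079 and 0.063).

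The falls by fold in F4 sterile against F2 fertile gonads were led by features close to the limit of detection. The non-coding RNA C36E8.10 had 0.460, 0.870 and 1.05 CPM in F4 sterile gonads, against 2.53, 1.39 and 3.59 CPM in F2 fertile gonads (log2 fold change -1.32 ± 0.42, edgeR adjusted p = 0.045). T19C3.7 had 0.307, 0.653 and 0.627 CPM in F4 sterile gonads, against 1.55, 1.27 and 2.47 CPM in F2 fertile gonads (-1.26 ± 0.40, edgeR adjusted p = 0.045). Neither was called by DESeq2 (adjusted p = 0.062 and 0.090), and each lost its edgeR call in 10 of the 12 fits (0.053 to 0.16). C14B1.7 and F58A4.2, which also fell against P0, had -0.98 ± 0.12 and -0.91 ± 0.18 (edgeR adjusted p = 0.00084 and 0.0062). ZK1236.5, which overlaps ZK1236.1, had 7.51, 8.05 and 12.7 CPM in F4 sterile gonads, against 16.8, 16.5 and 19.8 CPM in F2 fertile gonads (-0.89 ± 0.23, edgeR adjusted p = 0.019, lost in 2 fits with 0.058 and 0.068). F44E2.9 had 12.3, 8.48 and 8.78 CPM in F4 sterile gonads, against 19.9, 15.2 and 19.8 CPM in F2 fertile gonads (-0.87 ± 0.23, edgeR adjusted p = 0.020, lost in 4 fits with 0.054 to 0.066). ZK1098.7 (mrps-23) fell by 1.09 ± 0.22 on the log2 scale, and the snoRNA Y43F4B.11, which overlaps *klp-19*, had 19.5, 15.6 and 14.003 CPM in F4 sterile gonads, against 34.5, 32.3 and 26.96 CPM in F2 fertile gonads (-0.92 ± 0.20, edgeR adjusted p = 0.0086). B0336.11 (hpo-28) had 10.7, 10.4 and 7.52 CPM in F4 sterile gonads, against 21.4, 17.1 and 19.8 CPM in F2 fertile gonads (-0.99 ± 0.22, edgeR adjusted p = 0.010). The counts were 16 to 27 higher genes without any 1 F2 fertile sample, 24 without the F4 sterile sample of lineage 2 and 31 without the P0 sample of lineage 3, and 38 to 51 lower genes without any 1 F2 fertile sample and 48 without the F4 sterile sample of lineage 2.

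In F4 fertile against F2 fertile gonads edgeR called 0 unnamed genes, where 0.0114% of all tested features were higher and 0.0% lower. Before adjustment 31 genes were higher and 52 lower at p under 0.05, and DESeq2 also called 0 genes in either direction. The median log2 fold change was -0.01, and no bin median was below -0.09 or above 0.05.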

How the data were processed

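Gonads of 12 samples were compared, in 4 groups of 3 replicates taken from the sample labels, which give replicate numbers and no lineages. TopHat2 alignment to the WS220 transcriptome was run by the authors, who kept unique reads, removed ribosomal reads and deposited whole counts per gene from HTSeq, without normalization; tool versions and the use of strand are not given in the sources used here. The authors also deposited a table of normalized signal (counts divided by DESeq2 size factors), with their own log2 fold changes and adjusted p-values for 5 group pairs. Those fold changes and p-values were not used; the table served for gene names and positions. All sample columns matched a sample.

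Counts without a gene (8.23 to 14.4% on no feature and 1.76 to 2.24% ambiguous) were left out. The test was the quasi-likelihood one of edgeR 4.0.16 (R 4.3.3), after TMM scaling and a filter on low expression by group, with prior count 2. A gene with almost no reads in 1 group could pass this filter only through other groups, so its call against them could go only 1 way. All 12 samples entered 1 fit whose only term was the group, and p-values were adjusted over 8746 features with a threshold of 0.05. CPM use TMM-scaled library sizes. Standard errors were derived from each log2 fold change and its F statistic and are approximate. The test was tried on simulated counts first. The genes, lists and tests were chosen with earlier results of these data known. Genes were named by a rule: the 10 largest rises and falls per comparison among called genes without overlap of the groups, the smallest p per bin in F2 fertile against P0, the 10 most abundant, and the 3 nearest the count minimum on either side; a gene that the rule picked in several comparisons is described in the main ones only, and members of the functional lists are named outside it and were chosen after their values were seen. Lists by product description could not be made, so current class names and biotypes from a reference annotation of another build (WBcel235), matched by gene ID, were used instead (1010 of 1079 IDs were in its name table).

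The replicate numbers pair the samples, since the study's methods follow each lineage from its P0 animals; numbers were read as lineages. Deviations from the group means of same-numbered samples had a mean correlation of 0.095 (18 pairs, -0.14 to 0.61, 7 over 0.1), and the fit without the block was kept as in the study's methods. Alternatives were other scalings, DESeq2 1.42.0, no filter, lineage as a block, library name prefix as covariate, the 6 samples compared, other count minimums and bin widths, genes without overlap (chosen after the counts had been examined), and each library left out. DESeq2 was run here for that alternative only. Limits of detection cover counting error only. Each sample is a pool, so p-values measure the spread between lineages.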

Additional observations from a re-analysis of the deposited data

Results flagged for a closer look

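In 3 named genes the change against P0 differed between F2 fertile and F4 sterile gonads by the direct test of F4 sterile against F2 fertile. In each gene 1 of the values against P0 lay about 1 SE or less from 0 and did not pass the test (edgeR adjusted p = 0.85, 0.64 and 0.93 in the order below), so a change of direction against P0 was not shown and the tested result is the difference. B0336.11 (hpo-28) had a log2 fold change against P0 of 0.11 ± 0.22 in F2 fertile and -0.88 ± 0.22 in F4 sterile gonads, a difference of -0.99 (edgeR adjusted p = 0.010). ZK686.6 had 0.29 ± 0.29 and -0.79 ± 0.30, a difference of -1.08 (edgeR adjusted p = 0.023, and 0.052 to 0.085 without the F2 fertile sample of lineage 1 or 3 or the F4 sterile sample of lineage 2 or 3). R02F2.1 had -0.31 ± 0.08 and 0.01 ± 0.08, a difference of 0.32 (edgeR adjusted p = 0.020). The P0 samples are shared by both values and do not enter the difference itself.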

How the results depend on the processing

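Of 97 tested values of single named genes, 95 kept their direction and side of the threshold with lineage as a replicate block, 93 with DESeq2, 96 with the library prefix as covariate and 95 with TMM without chromosome III. None reversed, and 47 lost their call without at least 1 library. Most of these values were picked from the same data for their call and for groups without overlap. A reversal was thus unlikely in advance, and its absence shows little. The block moved the counts of lower genes in F2 fertile against P0 to 15, and of higher and lower genes in F4 sterile against F4 fertile to 8 and 15; it changed no other count by over 1.5 times. Lower genes in F2 fertile against P0 (9) were 19 with RLE size factors, 22 with DESeq2, 16 without the filter, 14 with the prefix, 22 with only 6 samples and 20 with TMM without chromosome III. Lower genes in F4 fertile against P0 (54) were 92 with 6 samples. In F4 sterile against F4 fertile, the 3 higher genes were 1 with RLE, 9 with DESeq2, 12 without the filter, 24 with the prefix, 0 with 6 samples and 1 with TMM without chromosome III, and the 7 lower genes 13 with DESeq2, 18 without the filter, 36 with the prefix and 0 with 6 samples. In F4 sterile against F2 fertile, 51 higher and 77 lower genes were 90 and 125 with the prefix and 17 and 27 with 6 samples. Without the filter, F4 fertile against F2 fertile had 3 higher and 2 lower genes. The share of genes with all homozygous samples below P0 (5.26%) was 8.06% with TMM without chromosome III, and the share over all features was not computed with that scaling. The share of all features called was not computed under these settings either, and the cause of these shifts was not tested. Counts of calls among the genes without overlap were within 1.5 times of those among all the unnamed genes in every comparison. The genes without overlap are most of the whole set, so this shows little about overlap. Shares of tested genes were not compared.

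Leaving out 1 library gave 13 to 51 higher and 3 to 28 lower genes in F2 fertile against P0, 53 to 109 and 21 to 94 in F4 fertile against P0, 113 to 187 and 125 to 186 in F4 sterile against P0, 0 to 22 and 0 to 46 in F4 sterile against F4 fertile, 16 to 55 and 38 to 96 in F4 sterile against F2 fertile, and 0 and 0 in F4 fertile against F2 fertile. In these fits 8.22 to 10.8% of genes had all homozygous samples above and 5.25 to 12.4% below P0. The shares over all features were computed neither for these values nor for the counts of calls. The highest bin median in F2 fertile against P0 was 0.18 with bins of 0.5 Mb and 0.038 with TMM without chromosome III, in F4 fertile against P0 0.20 and 0.054, and in F4 fertile against F2 fertile 0.084 with bins of 0.5 Mb; the lowest was -0.14 in F4 fertile against P0 with TMM without chromosome III and -0.043 in F4 fertile against F2 fertile with bins of 2 Mb. Depth limits the low risers, of which several had 0 to 3 counts in P0 gonads. These passed the low-count filter only through homozygous samples, so only a rise against P0 could be called.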
